A study of Mus musculus with 16 samples.

Results

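HL-1, an atrial cardiomyocyte line of the mouse, was measured on 16 arrays. All 16 were regrouped by the level of Per1, whatever their treatment label, and the 8 Per1-high arrays were compared with the 8 Per1-low arrays across all genes. In the deposited log2 table Per1 lay between 10.61 and 10.93 on the high arrays and between 7.58 and 8.15 on the low arrays. The midpoint of its range, 9.25, was the dividing level, so 10.61 and 8.15 are the values just inside and just outside it. Per1 defined the groups and is left out of everything that follows. The cells had been treated for 6 h with 100 nM dexamethasone plus 10 nM 17β-estradiol (label Dex+E2), with 100 nM dexamethasone (Dex), with 10 nM estradiol (E2) or with PBS (Vehicle), in Claycomb medium, with 4 arrays per label from 4 independent experiments. One immortal line stood for the cardiomyocyte in every group. The series asked how glucocorticoids and estrogen oppose each other in these cells.

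The Per1-high arrays were Dex+E2 1, 2 and 4, Dex 1, 2 and 4, E2 4 and Vehicle 4. The Per1-low arrays were Dex+E2 3, Dex 3, E2 1, 2 and 3 and Vehicle 1, 2 and 3. Of the 8 arrays with dexamethasone in their label 6 were high, against 2 of the 8 without it. Of the 8 arrays with estradiol in their label 4 were high, as were 4 of the 8 without it, so the E2 label was balanced over the groups and the Dex label was not. Array numbers were not balanced either. The 4 arrays numbered 4 were all high and the 4 numbered 3 all low, while among arrays numbered 1 and 2 those with dexamethasone in their label were high and the others low. Which of label and level is right for Dex+E2 3, Dex 3, E2 4 and Vehicle 4 cannot be told from these files, and the groups are therefore called by their Per1 level and not by a hormone.

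Glucocorticoids act through the glucocorticoid receptor, a nuclear receptor that leaves its chaperones on binding hormone, enters the nucleus and binds palindromic response elements in DNA. Its direct targets include transcription factors such as Klf15 and the C/EBP proteins, metallothioneins, and inhibitors of signalling such as Tsc22d3 and Dusp1. In heart muscle the receptor is known for effects on contraction, on lipid and glucose handling and on the maturation of the myocyte. Estrogen acts through related nuclear receptors and a membrane receptor, and estrogen and glucocorticoid signals are known to oppose each other in several tissues.

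The files held 43379 non-control spots for 41174 probes per array. Probes well above background made up 58.6% to 65.6% on the Per1-high arrays and 58.6% to 65.1% on the Per1-low arrays. The 75th percentile of the processed signal, an intensity in scanner units, lay between 402 and 557 on the high arrays and between 437 and 517 on the low arrays, and 0 spots were saturated. Precision is limited by the number of arrays. Of 12 cardiomyocyte markers 12 were measured, 11 of them above background on all 16 arrays. Their summed level, relative to the 75th percentile of each array, was 664 to 802 on the high arrays and 621 to 818 on the low arrays. Markers of smooth muscle summed to 384 to 467 on the high arrays and 402 to 466 on the low arrays, those of fibroblasts to 29.0 to 47.9 and 33.5 to 49.8, and those of leukocytes to 0.14 to 0.18 and 0.14 to 0.27. Endothelial markers, 3 of 8 measured, summed to 4.53 to 5.0 on the high arrays and 3.54 to 4.49 on the low arrays, which did not overlap, and their part in the results was not tested. On the second principal component Vehicle 1 stood apart at 80.2, where the other 15 arrays lay between -29.6 and 7.47. Each of the 4 slides held arrays of both groups.

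Levels here are log2 processed signals minus the 75th percentile of the array, and differences are Per1-high minus Per1-low means on that log2 scale. A gene was called set apart when no high array overlapped the low arrays and the means differed by at least 1, which is 2-fold. Because Per1 was measured in the same RNA, these differences are a description and were given no test. Of 19713 genes, 107 were set apart higher on the Per1-high arrays (0.543%) and 21 lower (0.107%), 128 in all (0.649%). Nothing is read from these shares, since the arrays were chosen by a gene of the same measurement. Of the 107 higher genes 84 were above background on all 16 arrays, and these differed by 1.01 to 4.38, with a median of 1.35, and 13 of them by at least 4-fold. Of the 21 lower genes 16 were above background on all 16 arrays, and these differed by -1.0 to -1.45, with a median of -1.21. A further 22 higher genes were above background on fewer than 8 of the Per1-low arrays, 9 of them on 0, and 5 lower genes on fewer than 8 of the Per1-high arrays. For these the dimmer group was in part not measured above background, so a difference given for one of them below is that of the signals and not a known size. The higher genes just inside and just outside the minimum were Cyp2d10 at 1.01 and Clca3a1 at 0.99, and the lower ones Dio2 at -1.0 and Sncaip at -0.98. The median difference of all genes was -0.02. Of the higher genes 17 had no symbol, and of the lower genes 2. The counts were 22 and 2 when the background was modelled by normexp instead, with all 22 and both 2 among the genes above, and 33 and 4 when quantile scaling followed it, a setting added after the first was seen. In that first setting 70 of the 107 higher genes kept a positive difference and all 21 lower genes a negative one, while after quantile scaling 107 and 21 kept their sign. The size of the differences below, and for some higher genes the direction, therefore depends on the background correction. This was not confined to genes lost in background, since Plin5, above background on all 16 arrays, turned its sign with normexp.

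The 4 genes chosen to mark a glucocorticoid state moved together. They were chosen with earlier results of these data known, so this is not independent support for such a state. With normexp all 4 kept a positive difference and 3 were set apart, or 4 when quantile scaling followed. Klf15, a Krüppel-like factor that controls amino acid and lipid metabolism in muscle and heart, was at 2.14, 2.35 and 2.56 (lowest, median and highest) on the 8 Per1-high arrays and at -0.34, 0.34 and 0.62 on the 8 Per1-low arrays. Its mean was 2.36 ± 0.16 on the high arrays and 0.24 ± 0.38 on the low arrays (SD, n = 8 each), a 4.33-fold difference. Map3k6, a kinase of the stress-activated MAP kinase cascade, was at 1.29, 1.51 and 1.59 on the high arrays and at -0.94, -0.72 and -0.61 on the low arrays, a 4.61-fold difference. For both genes every high array, Vehicle 4 and E2 4 included, lay above every low array, Dex 3 and Dex+E2 3 included. Cebpd, a C/EBP transcription factor of the acute phase response, was at 4.07, 4.21 and 4.47 on the high arrays and at 2.38, 2.76 and 3.01 on the low arrays, a 2.81-fold difference. Mt1, a metallothionein that binds zinc and copper, was at 5.05, 5.51 and 5.6 on the high arrays and at 4.12, 4.24 and 4.44 on the low arrays, a 2.30-fold difference. A further probe of Mt1 differed by 1.74 on the log2 scale, beside 1.20 for the probe used. The gap between the groups of arrays was wider than the spread within either group for all 4 genes, by little for Mt1, as the plot of levels by array shows.

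**Figure D1:**
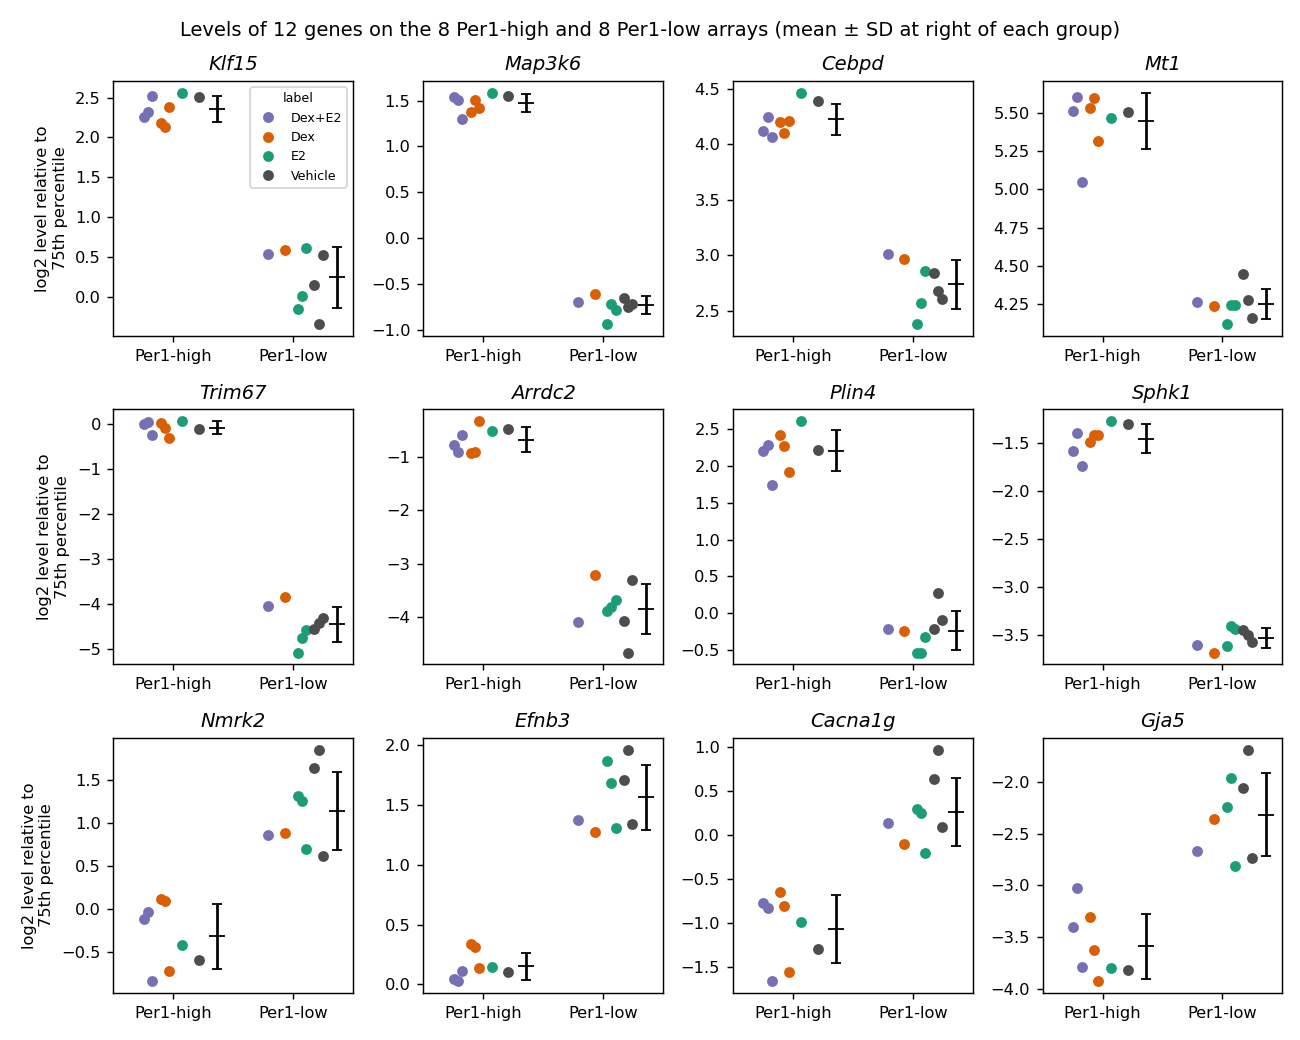
Levels of 12 genes on the 8 Per1-high and 8 Per1-low arrays, as log2 processed signal relative to the 75th percentile of each array, coloured by label, with the mean ± SD beside each group. The upper 8 genes were higher on every Per1-high array, the lower 4 were lower on every one, and the points of a label fall in both groups.

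Promoter sequence was read for the set-apart genes from the RefSeq windows of mouse assembly GRCm38.p6, which run from 250 bases before to 50 bases after each gene's start, and 68 of the higher and 11 of the lower genes had one. Searched on both strands were the glucocorticoid response element core GNACANNNTGTNC, the receptor hexamer AGAACA, the metal response element core TGCNCNC, the E-box CACGTG and the TATA box TATAAA. The response element core was in 3 of the 68 higher genes (4.41%), 1 of the 11 lower genes (9.09%) and 51 of all 11141 measured genes with a window (0.458%), and in 0.475% of all 32851 windows. The higher genes that held it were Map3k6, Mt1 and Slc10a6, and the lower one was Suox, and their windows are printed because they carry that motif, with the core and any overlapping hexamer in capitals.
Map3k6, chr4:133240568-133240867, plus strand: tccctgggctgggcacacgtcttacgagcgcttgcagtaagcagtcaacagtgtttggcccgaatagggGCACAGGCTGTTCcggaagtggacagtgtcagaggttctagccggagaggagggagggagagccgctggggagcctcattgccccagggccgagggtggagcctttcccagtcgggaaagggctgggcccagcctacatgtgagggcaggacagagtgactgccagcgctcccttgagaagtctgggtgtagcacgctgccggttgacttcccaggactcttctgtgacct
Mt1, chr8:94178839-94179138, plus strand: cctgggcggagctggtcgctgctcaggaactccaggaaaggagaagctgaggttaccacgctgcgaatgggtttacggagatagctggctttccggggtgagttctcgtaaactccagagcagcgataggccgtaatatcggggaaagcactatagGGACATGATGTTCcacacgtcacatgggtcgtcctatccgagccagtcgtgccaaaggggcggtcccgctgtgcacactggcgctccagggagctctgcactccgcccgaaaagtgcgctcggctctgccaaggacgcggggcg
Slc10a6, chr5:103629354-103629653, minus strand: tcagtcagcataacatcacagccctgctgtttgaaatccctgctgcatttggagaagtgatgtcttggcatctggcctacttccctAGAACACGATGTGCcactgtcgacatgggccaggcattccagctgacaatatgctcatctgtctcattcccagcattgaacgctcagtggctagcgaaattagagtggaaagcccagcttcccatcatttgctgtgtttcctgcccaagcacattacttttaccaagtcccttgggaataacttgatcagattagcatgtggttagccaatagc
Suox, chr10:128673869-128674168, minus strand: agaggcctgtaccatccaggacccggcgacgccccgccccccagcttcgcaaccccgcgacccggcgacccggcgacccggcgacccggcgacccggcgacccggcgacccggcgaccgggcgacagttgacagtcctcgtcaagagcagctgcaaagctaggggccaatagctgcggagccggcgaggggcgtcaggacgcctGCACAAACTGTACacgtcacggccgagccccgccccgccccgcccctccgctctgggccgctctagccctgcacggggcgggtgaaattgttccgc
The core began at base 70 of the Map3k6 window, 157 of the Mt1 window, 88 of the Slc10a6 window, where the hexamer overlapped it from base 87, and 205 of the Suox window. A match is a description of letters, not a site shown to be bound. The hexamer was in 10 of the 68 higher genes, 1 of the 11 lower genes and 15.6% of measured genes, and in 19.0% of all windows. The metal response core was in 44, 8 and 63.3%, and in 51.0% of all windows. The E-box was in 7, 2 and 11.2%, and in 7.15% of all windows. The TATA box was in 15, 5 and 10.4%, and in 13.6% of all windows. The Klf15 window held 3 E-boxes and 0 response element cores.

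Trim67, Arrdc2 and Tent5b differed by more than any of the 4 markers, an order that normexp did not keep, with differences of 1.73, 1.20 and 1.33 beside 1.86 for Klf15. Slc10a6, a sodium-dependent carrier of sulfated steroids, was at -2.10, -1.68 and -1.48 on the Per1-high arrays and at -7.06, -6.44 and -5.75 on the Per1-low arrays, of which 2 were above background. With 6 of the 8 low arrays not above background the size is not known, and the signals differed by 4.73, and by 0.86 with normexp. Trim67, a ubiquitin ligase of the TRIM family best known from brain, was at -0.31, -0.05 and 0.06 on the high arrays and at -5.09, -4.49 and -3.86 on the low arrays, a 20.8-fold difference with all 16 arrays above background. Trim67 differed by 1.73 on the log2 scale with normexp, so its direction held while its size did not. Arrdc2, an arrestin-domain protein that links receptors to ubiquitin ligases, was at -0.93, -0.69 and -0.33 on the high arrays and at -4.66, -3.84 and -3.20 on the low arrays, an 8.90-fold difference. With normexp Arrdc2 was not set apart, though it was when quantile scaling followed. Tent5b, of a family of noncanonical poly(A) polymerases, was at -0.37, -0.13 and 0.04 on the high arrays and at -3.26, -3.0 and -2.69 on the low arrays, a 7.30-fold difference. These genes had a span of under 1 log2 unit among the 8 high arrays.

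Plin4, a coat protein of lipid droplets, was at 1.74, 2.25 and 2.61 on the Per1-high arrays and at -0.54, -0.23 and 0.27 on the Per1-low arrays, a 5.45-fold difference. Plin5, which tethers lipid droplets to mitochondria, was at -3.60, -3.30 and -3.0 on the high arrays and at -4.71, -4.29 and -3.99 on the low arrays, a difference of 1.04 that was -0.24 with normexp. Of 13 measured lipid droplet genes Plin4 and Plin5 were set apart, both higher, and 5 had a positive difference (38.5%), beside 44.8% of all genes. Of all genes 0.543% were set apart higher. B4galnt1, a ganglioside synthase, averaged 0.12 ± 0.14 on the high arrays and -2.47 ± 0.34 on the low arrays (SD, n = 8 each), a 6.04-fold difference, with a further probe of the gene at 1.39. Sphk1, the kinase that makes sphingosine phosphate, was at -1.74, -1.42 and -1.27 on the high arrays and at -3.69, -3.54 and -3.41 on the low arrays, a 4.23-fold difference. Adamts1, a secreted protease of the matrix, averaged 1.54 ± 0.15 on the high arrays and -0.74 ± 0.24 on the low arrays (SD, n = 8 each), a 4.84-fold difference. Thsd7a, a membrane protein with thrombospondin domains, had 7 high arrays and 1 low array above background, so the size is not known, and its signals differed by 2.25, and by -0.21 with normexp. Of the higher genes with a symbol 7 were above background on 0 of the Per1-low arrays and have only a bound, the mean of the high arrays over the lowest signal well above background on each low array, or the probe's own signal where that was higher. Named after their values were seen, Drd4, a dopamine receptor, had a bound of 2.51-fold, Kcnh1, a voltage-gated potassium channel, 2.31-fold, and Cd28, a costimulatory receptor of T cells, 1.96-fold. Such genes passed the filter through the Per1-high arrays alone. The bounds hold for the processed signal used here, and the differences of dim genes depend on the background correction.

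The list of known glucocorticoid-induced genes, drawn up with earlier results of these data known, had 34 measured members. Of these 9 were set apart higher and 0 lower, and 17 were higher and 1 lower on arrays that did not overlap, at any size of difference. Over all genes, 0.543% were set apart higher and 0.107% lower, and 1.89% were higher and 1.87% lower without overlap. Positive differences were found in 27 of the 34, with a median of 0.58, beside 8824 of all 19713 genes and a median of -0.02. With normexp 25 of the 34 were positive, with a median of 0.55, beside 7723 of all genes and a median of -0.15, and 4 members were set apart, or 7 when quantile scaling followed. The largest differences in the list were those of Arrdc2, Map3k6, Klf15 and Lrg1. Lrg1, a secreted leucine-rich glycoprotein of the acute phase, was at -1.25, -0.94 and -0.68 on the Per1-high arrays and at -3.29, -3.08 and -2.69 on the Per1-low arrays. Mt2, the metallothionein beside Mt1, averaged 6.20 ± 0.20 on the high arrays and 4.30 ± 0.44 on the low arrays (SD, n = 8 each), a 3.73-fold difference. Mt1 and Mt2 are close copies, so a probe of either may bind both transcripts, and they were the set-apart members among 11 metallothionein and zinc genes. Cebpb averaged 0.71 ± 0.10 on the high arrays and -0.66 ± 0.15 on the low arrays (SD, n = 8 each). With Cebpd it was set apart among 6 measured C/EBP factors, of which 3 had a positive difference.

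Several of the best-known targets differed by less than 2-fold. Klf9 averaged 1.16 ± 0.15 on the Per1-high arrays and 0.26 ± 0.10 on the Per1-low arrays (SD, n = 8 each), a difference of 0.90 with no overlap between the arrays. Fkbp5, a chaperone that restrains the receptor, was at -0.46, -0.28 and 0.24 on the high arrays and at -1.32, -0.91 and -0.61 on the low arrays, a difference of 0.75. The 3 probes of Fkbp5 gave differences of 0.40 to 0.97, so its size rests on the choice of probe. Tsc22d3, the gene of the anti-inflammatory leucine zipper GILZ, was at 1.41, 1.43 and 1.53 on the high arrays and at 0.69, 0.96 and 1.22 on the low arrays, a difference of 0.52. Klf9, Fkbp5 and Tsc22d3 were thus ordered without overlap but below the minimum difference, and 1.89% of all genes were higher without overlap at any size. Sgk1, a kinase of sodium transport, differed by 0.36 with overlapping arrays, and Dusp1, a MAP kinase phosphatase, by -0.19 with overlapping arrays. Nr3c1, the glucocorticoid receptor itself, was at 1.63, 1.81 and 1.94 on the high arrays and at 1.96, 2.10 and 2.25 on the low arrays, a difference of -0.31. Nr3c1 was lower on each high array than on any low array, as were 1.87% of all genes, and its 4 probes gave differences of -0.39 to -0.26. Nr3c2, the mineralocorticoid receptor, differed by -0.14 with 6 high and 7 low arrays above background. Of 16 measured receptor and cofactor genes 0 were set apart, beside 0.649% of all genes.

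**Figure D2:**
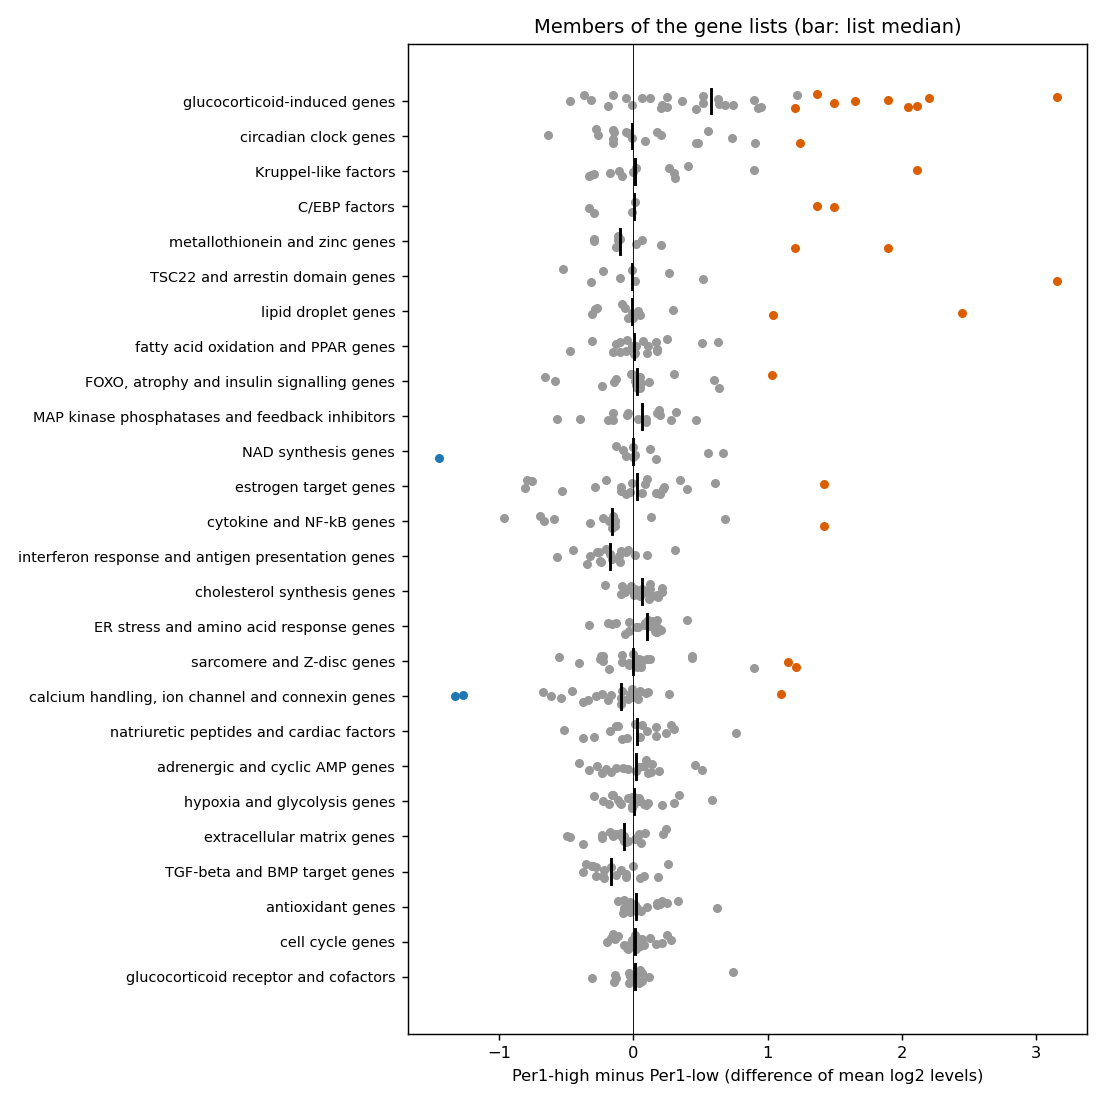
Differences of mean log2 levels, Per1-high minus Per1-low, for each measured member of 26 gene lists, with the median of each list as a bar. Members set apart higher are orange, members set apart lower are blue, and the glucocorticoid-induced list has the median farthest to the right, at 0.58.

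Of the 26 lists 13 had a set-apart member and 13 had 0, while with normexp 6 had one, and 11 when quantile scaling followed. These counts are not of independent lists, since Arrdc2, Klf15 and Cxcl12 each count in more than 1 of them. The FOXO list counts through Foxo3 alone, which was above background on 0 Per1-low arrays. Counts of positive differences in the lists stand beside 44.8% of all genes. Set-apart counts stand beside 0.543% of all genes higher and 0.107% lower. Among 19 measured clock genes Per2, a repressor of the clock, was the set-apart one, at -0.88, -0.77 and -0.58 on the Per1-high arrays and -2.24, -2.08 and -1.33 on the Per1-low arrays. A further probe of Per2 differed by 0.20, so the size rests on the choice of probe, and 9 of the 19 clock genes had a positive difference. Per2 was not set apart with normexp, nor when quantile scaling followed. Among 14 Krüppel-like factors Klf15 was set apart, and 5 were higher and 1 lower without overlap, beside 1.89% and 1.87% of all genes. Positive differences numbered 3 of 19 among interferon and antigen presentation genes (median -0.17), as among genes of cytokines and NF-kB, with 3 of 15 (median -0.16), and among targets of TGF-beta and BMP, with 4 of 19 (median -0.17). The first and the last of these lists had 0 set-apart members, and the median of all genes was -0.02. With normexp 7 of the 19 TGF-beta and BMP targets were positive, with a median of -0.18, beside a median of -0.15 over all genes. The set-apart member of the cytokine list was Cxcl12, a chemokine that is also an estrogen target in several tissues. Cxcl12 was at 2.94, 3.49 and 3.82 on the high arrays and at 1.57, 2.05 and 2.40 on the low arrays, a 2.68-fold difference. With normexp Cxcl12 was not set apart, though it was when quantile scaling followed. Among cholesterol synthesis genes 16 of 23 were positive (median 0.07) and among ER stress genes 15 of 22 (median 0.10), with 0 set apart in both lists. Foxo3, a forkhead factor of muscle atrophy, was at -6.63, -6.22 and -5.69 on the high arrays, 5 of them above background, and was above background on 0 of the low arrays, so no fold is given, and with normexp its difference was -0.68.

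Of 27 sarcomere genes of the cardiomyocyte Myh7 and Myoz2 were set apart, both higher (0 with normexp), and 14 of 27 had a positive difference. Over all genes 0.543% were set apart higher and 0.107% lower, and 44.8% had a positive difference. Myh7, the slow myosin heavy chain of fetal and stressed ventricle, was at 1.73, 2.26 and 2.50 on the Per1-high arrays and at 0.40, 1.00 and 1.12 on the Per1-low arrays, a 2.32-fold difference. Myoz2, a Z-disc protein that binds calcineurin, averaged 3.04 ± 0.22 on the high arrays and 1.88 ± 0.09 on the low arrays (SD, n = 8 each). Of 27 genes of calcium handling, ion channels and connexins, Sln was set apart higher and Cacna1g and Gja5 lower, and 8 of the 27 had a positive difference. With normexp 0 of the 27 were set apart in either direction, and with quantile scaling after it 1 was higher and 0 lower, with Cacna1g at -0.91 and -0.86 and Gja5 at -0.95 and -0.46 in these settings. Sln, sarcolipin, the atrial inhibitor of the calcium pump of the sarcoplasmic reticulum, was at 3.16, 3.45 and 3.75 on the high arrays and at 2.03, 2.37 and 2.53 on the low arrays, a 2.15-fold difference. Cacna1g, the pore of a T-type calcium channel of pacemaking cells, was at -1.66, -0.91 and -0.65 on the high arrays and at -0.21, 0.19 and 0.97 on the low arrays, a difference of -1.33. Gja5, connexin 40 of atrial gap junctions, was at -3.93, -3.71 and -3.03 on the high arrays and at -2.81, -2.30 and -1.68 on the low arrays, a difference of -1.27, while a further probe of the gene gave -0.12. The 2 genes were lower on all 8 high arrays, with Gja5 resting on the brighter of its probes.

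The lower genes were fewer and the differences smaller. Nmrk2, a kinase of muscle that feeds nicotinamide riboside into NAD synthesis, was at -0.83, -0.26 and 0.12 on the Per1-high arrays and at 0.62, 1.07 and 1.85 on the Per1-low arrays, a difference of -1.45. Efnb3, a transmembrane ephrin, was at 0.02, 0.12 and 0.34 on the high arrays and at 1.27, 1.53 and 1.96 on the low arrays, a difference of -1.41. Both genes were above background on all 16 arrays and kept a gap between the groups. Rab7b, a small GTPase of lysosomal traffic, had 2 high and 8 low arrays above background, so the size is not known, and its signals differed by -2.02. Gna14, an alpha subunit of a heterotrimeric G protein, differed by -1.34, Rflna, a partner of filamin, by -1.33, and Heyl, a Notch target that represses transcription, by -1.31. Ppfibp2, a liprin, was at -1.26, the integrin subunit gene Itgb6 at -1.16 and Cdrt4 at -1.06, with 4 high arrays of the last above background. The unannotated 1810053B23Rik differed by -1.29 with 2 high and 7 low arrays above background. Estrogen receptor genes were also lower on the high arrays. Gper1, the membrane estrogen receptor, was at -3.07, -2.78 and -2.61 on the high arrays and at -2.14, -2.03 and -1.63 on the low arrays, a difference of -0.81. Esr2, estrogen receptor beta, was at -2.66, -2.41 and -2.22 on the high arrays and at -2.0, -1.91 and -1.77 on the low arrays, a difference of -0.53. Neither receptor overlapped between the groups, and 1.87% of all genes were lower without overlap at any size of difference. Esr1, estrogen receptor alpha, was above background on too few arrays to be kept.

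The differences were also read in sets of arrays that share none. On arrays numbered 3 and 4 the Per1-high minus Per1-low difference is number 4 minus number 3, so Per1 group and array number cannot be told apart there, and on arrays numbered 1 and 2 Per1 group and Dex label cannot. All 128 set-apart genes had the same sign on slide 1, on slide 2, on slide 3 and on slide 4, a count that the absence of overlap forces. On arrays numbered 1 and 2 alone, 580 genes differed by at least 2-fold, and 374 of them had the same sign and 150 the same sign and at least 2-fold on arrays numbered 3 and 4. In the other direction 574 genes did so on arrays 3 and 4, with 397 of the same sign and the same 150 on arrays 1 and 2. Across all genes the differences of the 2 sets correlated at r = 0.380, a description over genes that are not independent of each other. Across the slides this correlation lay between -0.019 (slides 2 and 3) and 0.340 (slides 1 and 2). The ratio of the difference on arrays 3 and 4 to that on arrays 1 and 2 had a median of 0.97 over the set-apart genes and ranged from 0.61 to 3.44.

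**Figure D3:**
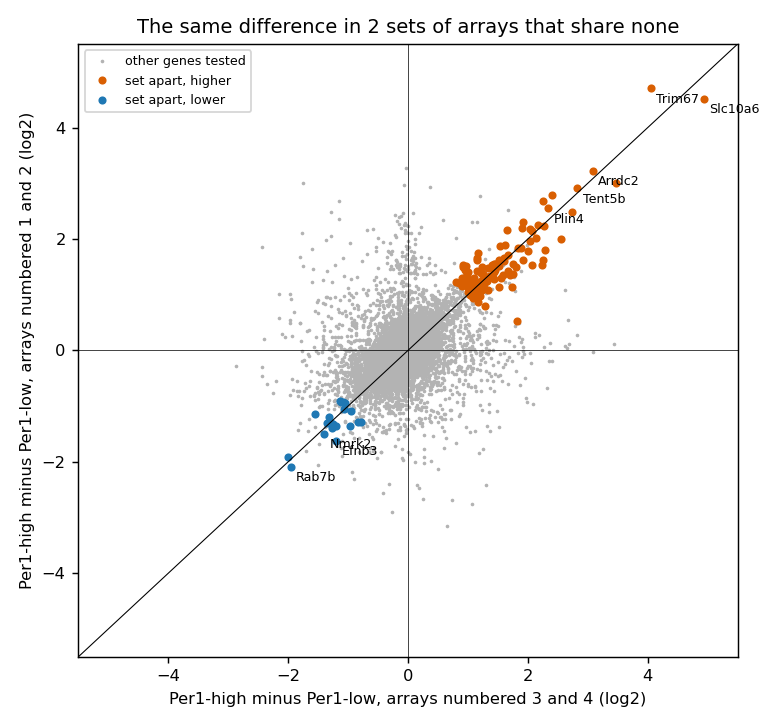
Per1-high minus Per1-low differences of 19713 genes on arrays numbered 3 and 4 (x axis) and on arrays numbered 1 and 2 (y axis), in log2 units, with the line of equality. Set-apart genes, which were chosen over all 16 arrays, lie along that line from Rab7b at the lower left to Slc10a6 at the upper right.

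The E2 label had not been used to form the groups, so its effect at a given Per1 level was tested. Between arrays with and without E2 in their label limma called 0 of 19714 genes (0%). This fit had no slide term. All arrays on slide 1 lacked E2 in their label and all on slide 4 had it, so label and slide cannot be fully told apart. The 0 calls therefore do not show that E2 had no effect. An unadjusted p under 0.05 was found for 748 genes, fewer than the 986 that chance alone gives, and the smallest adjusted p was 0.212. Among the 128 set-apart genes 3 had such an unadjusted p, and the median difference was -0.03, with a range of -0.61 to 0.70. In 116 of the 128 the 95% interval of the E2 difference lay within 50% of the size of the Per1-high minus Per1-low difference. Choosing genes without overlap limits the spread within each group beside that difference, so this count is in part forced. The smallest p-values belonged to Insl5 at 0.48 ± 0.08 (SE), Olfr414 at 0.59 ± 0.10, Ntsr1 at 0.81 ± 0.15, Dchs1 at 0.52 ± 0.10 and BC116864 at 0.50 ± 0.09, all higher on the E2-labelled arrays. None of these passed, each at a limma adjusted p of 0.212. Tff1, a classical estrogen target, differed by 0.62 (95% interval 0.25 to 1.00, limma adjusted p = 0.532) and Greb1, another, by 0.31 (-0.10 to 0.73).

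With slide as a block the same test called 55 genes, 40 higher and 15 lower on the E2-labelled arrays, of which 5 were set-apart genes. An unadjusted p under 0.05 was found for 2728 genes, against 748 without the block. In that fit the E2 label is compared within slides 2 and 3 alone, where the E2-labelled arrays took positions 3 and 4, and were numbered 1 and 2 where the others were numbered 3 and 4, so label, position and array number cannot be told apart. The smallest p-values there belonged to AK084087 at 3.87, against 1.90 without the block, and to ENSMUST00000123082 at -0.76, against -0.19. Next came Chac1, a glutathione-degrading enzyme of the amino acid response, at -1.01, against 0.04 without the block. Ltbp2, a matrix protein, was at 0.61, against -0.05 without it, and Notch3, a receptor of the Notch pathway, at 0.62, against -0.06. For Chac1, Ltbp2 and Notch3 the sign changed with the block, and for AK084087 and ENSMUST00000123082 it did not. Insl5 passed there as well, at 0.56 with a limma adjusted p of 0.027. Among the 5 set-apart genes called was Cxcl12, at 0.54 (limma adjusted p = 0.017), against 0.02 without the block. Nmrk2 was another, at 0.56 (limma adjusted p = 0.043), against -0.15 without it.

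Whether the Per1-high minus Per1-low difference itself depended on the E2 label was asked by the interaction of group and label. Limma called 0 of 19714 genes (0%). An unadjusted p under 0.05 was found for 453 genes against 986 by chance, and the smallest adjusted p was 0.9996. Klf15 differed between the groups by 2.15 on the E2-labelled arrays and 2.07 on the others, an interaction of 0.08 (95% interval -0.51 to 0.68). Map3k6 differed by 2.26 and 2.14 (interaction 0.12, interval -0.11 to 0.35), Cebpd by 1.52 and 1.46 (0.07, -0.32 to 0.46) and Mt1 by 1.19 and 1.21 (-0.02, -0.33 to 0.29). For these 4 genes the interval excluded a loss of 50% of the difference on the E2-labelled arrays. Among the 128 set-apart genes the interaction had a median of 0.07 and ranged from -1.33 to 1.11, and the median width of its interval was 1.03. In 91 of them the interval excluded a loss of 50% of the difference with the E2 label, and in the others it did not. The difference was larger on the E2-labelled arrays for 73 genes and smaller for 55, with a median ratio of 1.03. Set-apart genes had to keep all high arrays apart from all low arrays, E2-labelled or not. A gene whose difference was lost with the E2 label could therefore not be among the 128. These counts, the median and the ratio are in part forced by that choice and do not show that the label had no effect. The 5 smallest p-values belonged to ENSMUST00000160579 at 0.58, AK010104 at 1.68, AK039932 at 3.83, Cd3g, a chain of the T-cell receptor complex, at 3.44 and NAP057972-1 at 4.26, each with an adjusted p of 0.9996. Of these Cd3g, AK039932 and NAP057972-1 were above background on at most 4 arrays of either group.

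**Figure D4:**
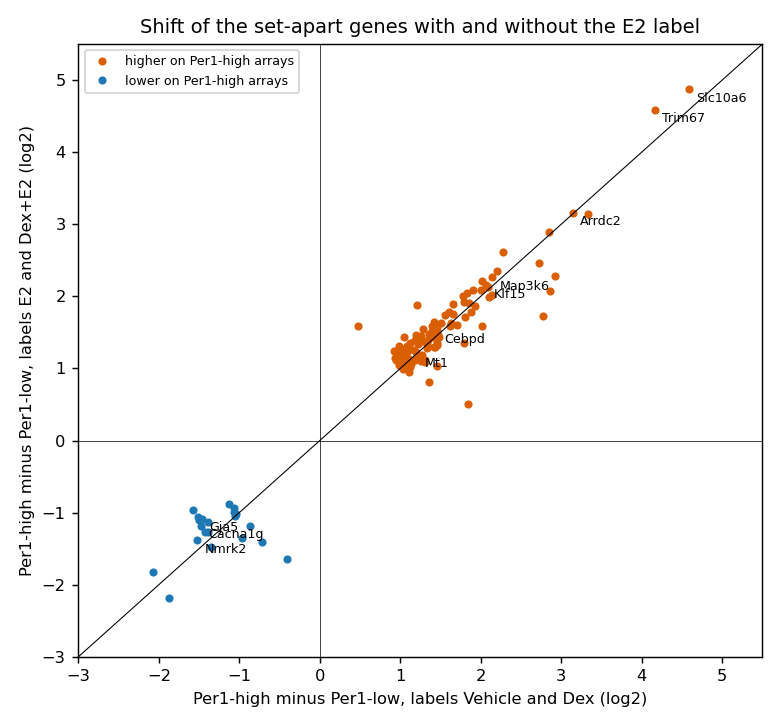
Per1-high minus Per1-low differences of the 128 set-apart genes on the arrays without E2 in their label (x axis) and on the arrays with it (y axis), in log2 units, with the line of equality. The genes lie on both sides of the line, 73 with a larger and 55 with a smaller difference on the E2-labelled arrays. They were chosen for no overlap over all arrays, so a gene without a difference on either axis could not be among them.

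The Dex label was tested in the same way at a given Per1 level, which sets the Dex-labelled arrays against E2 4 and Vehicle 4 among the high ones and sets Dex+E2 3 and Dex 3 against the others among the low ones. This fit had no slide term either. All arrays on slide 2 lacked dexamethasone in their label and all on slide 3 had it, so label and slide cannot be fully told apart. Limma called 0 of 19714 genes (0%). An unadjusted p under 0.05 was found for 945 genes against 986 by chance, and the smallest adjusted p was 0.779. Klf15 differed by 0.10 (95% interval -0.25 to 0.44), Map3k6 by -0.01 (-0.15 to 0.13), Cebpd by 0.03 (-0.19 to 0.26) and Mt1 by -0.02 (-0.20 to 0.15). Each of these intervals is narrower than the Per1-high minus Per1-low difference of its gene. Over the 128 set-apart genes the median difference between Dex-labelled and other arrays was -0.03, with a range of -1.23 to 0.30, and 5 had an unadjusted p under 0.05. In 111 of the 128 the 95% interval lay within 50% of the size of the Per1-high minus Per1-low difference. As for the E2 label, the choice of genes without overlap in part forces this count. Trim67 differed by 0.30 (-0.01 to 0.61) and Greb1 by 0.51 (0.12 to 0.90, adjusted p = 0.982). The 5 smallest p-values belonged to AK034802 at -3.22 ± 0.62 (SE), ENSMUST00000156595 at -1.19 ± 0.24, Ghrl, the ghrelin gene, at -1.25 ± 0.26, NAP052665-1 at -0.31 ± 0.07 and XR_387010 at -1.03 ± 0.22, all lower on the Dex-labelled arrays. Each had a limma adjusted p of 0.779, and AK034802 passed, at -3.52 with an adjusted p of 0.025, when Dex 2 was left out. AK034802 was above background on 3 high and 5 low arrays, ENSMUST00000156595 on 6 and 4, Ghrl on 4 and 6 and XR_387010 on 3 and 1. The sizes given for these genes are therefore not known.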

How the data were processed

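Each deposited scanner file holds one array. Spots were read by Agilent Feature Extraction 12, as the submitters' processing notes say. The processed signal used here is, per the file headers, a linear intensity from which background had been subtracted. The table the authors deposited for the series holds log2 values with the same sorted values in every column and a median of 4.70. Its method is not given in the sources used. It supplied Per1 alone and was otherwise an alternative.

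Control spots and spots flagged as outliers were dropped, which left 385 probe values missing, and spots of a probe were averaged. A probe was kept when well above background on at least 4 of 16 arrays (26756 probes), and a gene was its kept probe with the highest mean. That gave 19714 genes with Per1, 13959 of them with a symbol from the RefSeq table of GRCm38.p6. Label effects were fitted with limma 3.58.1 in R 4.3.3 (lmFit, then eBayes with a trend) on all 16 arrays with 2-sided p-values adjusted by Benjamini-Hochberg over all genes and a threshold of 0.05. The E2 test and its interaction used the 4 combinations of Per1 group and E2 label, and the Dex test used Per1 group, Dex label and E2 label. The code was tested on simulated levels.

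The rule for the members, the gene lists and the alternatives were chosen with earlier results of these data known. Named are the 12 genes with a symbol with the largest difference in each direction among set-apart genes above background in both groups, the 4 markers, up to 4 set-apart members of each list, a panel of receptors and targets, and the 5 genes with the smallest p of each test. Suox, the 3 genes given as bounds, the genes just inside and outside the minimum and those named from the fit with slide as a block were chosen after their values were seen. A gene that the rule names is not reported here.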

Additional observations from a re-analysis of the deposited data

Results flagged for a closer look

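For each of 47 named genes the farthest of the 8 arrays in each Per1 group was set against its nearest neighbour by Dixon's rule, 94 readings in all. Chance flags about 1 reading in 20, and 10 were flagged. Among the Per1-high arrays, Adamts1 was at 1.88 on Dex+E2 4, above the next array at 1.61, and Thsd7a was at -5.46 on Dex+E2 2, below the next at -4.18. Among the Per1-low arrays, Vehicle 2 was the far array for B4galnt1 at -3.25 (next -2.59), Thsd7a at -7.96 (next -6.61), Ppfibp2 at 2.11 (next 1.36) and Myh7 at 0.396 (next 0.885). E2 2 was the far array for Itgb6 at -2.02 (next -3.40) and Cdrt4 at -3.39 (next -4.84). Per2 was at -1.33 on Vehicle 3 (next -1.89) and Klf9 at 0.464 on E2 1 (next 0.304). None of these arrays reached the range of the other group, which is forced because the groups did not overlap for any of these genes.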

How the results depend on the processing

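The normexp background, run here on median signals and scaled to the 75th percentile, moved most. It gave 22 higher and 2 lower set-apart genes and 13286 E2 calls, 8785 positive and 4501 negative. Under it the median of all genes moved to 0.30 for the E2 label, -0.15 between the Per1 groups and -0.25 for the interaction. Normexp was run in more than 1 way, and quantile scaling after it was added once its result had been seen. That setting gave 33 and 4 set-apart genes and 0 calls in each of the 3 label tests, with 807 unadjusted p-values under 0.05 for E2. The cause was not tested. With normexp alone the sign turned for Thsd7a (-0.21), Plin5 (-0.24), Foxo3 (-0.68) and, in the interaction, AK010104 (-1.03), AK039932 (-0.75), Cd3g (-0.88) and NAP057972-1 (-1.01). Other settings of the set-apart counts gave 233 higher and 106 lower genes at 1.5-fold and 372 and 368 with no minimum difference. Quantile scaling gave 117 and 17, the deposited log2 values 120 and 16, the unfiltered probes 109 and 22, probes above background on all arrays 84 and 16, and within slides 114 and 25. Leaving out each array in turn gave 104 to 114 higher and 18 to 28 lower genes, 0 E2 calls, 0 to 1 interaction calls (1 without Vehicle 2) and 0 to 1 Dex calls (1 without Dex 2). Slide as a block gave 55 E2 calls and 0 in the other label tests. The deviations of same-numbered arrays correlated at -0.126 to 0.332, and at 0.0643 to 0.297 among those numbered 4, all Per1-high, so not every pair was over 0.1 and the arrays were not treated as paired. With number as a replicate block the differences gave 179 and 73 set-apart genes, which rest on arrays numbered 1 and 2 alone since numbers 3 and 4 hold one Per1 group each, and each label test called 0. Probes near background limit the size of the differences given for dim genes.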
